A study of Homo sapiens with 24 samples.

Results

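The HOX genes are the 39 human protein-coding genes of the HOXA, HOXB, HOXC and HOXD clusters, taken by symbol from GENCODE version 44, which has 19970 protein-coding genes when chromosome Y and the mitochondrial genome are left out. They were set against the 2615 super-enhancers that the authors ranked in the germinal center B cell-like diffuse large B cell lymphoma line OCI-Ly7. No super-enhancer overlapped the body, extended by 50 kb on either side, of any HOX gene: 0 of 39 genes and 0 of 4 clusters. The same rule gave a super-enhancer to 6140 of the 19970 protein-coding genes (30.7%) and to 730 of 2708 other protein-coding genes of matched length (27%). The nearest super-enhancer lay 57.7 kb from HOXB, 126 kb from HOXC, 657 kb from HOXA and 1.46 Mb from HOXD.

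HOX genes encode homeodomain transcription factors that pattern the body axis. Within a cluster all of the genes named here lie in one orientation, and their order from the 3′ end (low numbers) to the 5′ end (high numbers) follows the order in which they are used along the axis and in development. Genes with the same number in different clusters are paralogues and form a paralogue group. In blood, members such as HOXA9 are used in stem and progenitor cells and are lowered as cells mature. Trithorax-group proteins, among them the KMT2A (MLL1) complex, keep the clusters active, and Polycomb-group proteins keep them silent.

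CUT&RUN for H3K27ac, H3K4me1 and H3K4me3 was performed on isogenic OCI-Ly7 clones of 4 genotypes, in 24 samples with 2 per mark and genotype. The genotypes were WT, C (the CREBBP point mutant), K (KMT2D knockout) and CK (both alterations). The values below come only from H3K27ac in WT, clones that went through CRISPR without becoming edited, grown from single cells, under no treatment beyond culture. The authors pooled both WT libraries into 1 signal column, so no value here has a replicate error, no test between samples was possible, and the other 22 samples entered no comparison. H3K27ac is an acetylation of histone H3 found at active enhancers and promoters. A super-enhancer is here a group of H3K27ac peaks within 12500 bp of each other, joined by the program ROSE, whose summed signal exceeded 10617. Peaks within 2500 bp of a transcription start site (TSS) had been left out before the joining. This step removes more sequence where start sites are dense: within 50 kb of a HOX gene, the median share of bases near a protein-coding TSS was 51.7%. Regions under the cutoff were not analysed here, so the absence of a super-enhancer does not show an absence of H3K27ac. The labelled cell type was checked against markers: 8 of 10 B cell and germinal center markers (MS4A1, CD79A, CD79B, PAX5, EBF1, BCL6, MEF2B and MYBL1) had a super-enhancer within 50 kb. Of 14 T cell, myeloid and epithelial markers 2 did, EPCAM and CSF1R.

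The sequences shown here are the promoters of the HOX genes nearest to and farthest from a super-enhancer, and the ends of the super-enhancers that face the clusters. They were not used in the overlaps and distances above, which rest on positions alone. All are given 5′ to 3′ on hg38, with CG dinucleotides, the targets of DNA methylation, in capitals. The promoters are the 250 bases before the RefSeq start site (GRCh38.p14), on the strand of the gene. That of HOXB1, 57.7 kb from the nearest super-enhancer, is chr17:48531012-48531261 (minus strand), and that of HOXD1, 1.56 Mb away, is chr2:176188418-176188667 (plus strand). The HOXB1 window overlaps no annotated exon, and the HOXD1 window overlaps an exon of the lncRNA HAGLR on the opposite strand.
HOXB1 promoter: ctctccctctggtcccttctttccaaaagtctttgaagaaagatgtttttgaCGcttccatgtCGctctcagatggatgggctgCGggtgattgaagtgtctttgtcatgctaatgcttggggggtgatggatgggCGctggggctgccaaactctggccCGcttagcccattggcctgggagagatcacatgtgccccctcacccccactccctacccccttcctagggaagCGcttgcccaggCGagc
HOXD1 promoter: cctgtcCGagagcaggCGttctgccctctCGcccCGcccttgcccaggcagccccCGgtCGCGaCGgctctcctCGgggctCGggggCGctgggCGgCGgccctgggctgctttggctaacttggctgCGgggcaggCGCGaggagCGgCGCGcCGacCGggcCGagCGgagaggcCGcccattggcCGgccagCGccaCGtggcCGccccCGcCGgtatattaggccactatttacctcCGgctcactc
The HOXB1 window held 7 CG at 57.2% GC, and the HOXD1 window held 31 at 74.8% GC. RefSeq promoters were matched for 19 of the 39 HOX symbols, and all 27 of their entries were identical to hg38. Over the 26 distinct HOX windows the median was 19.5 CG (0 to 40), against 11 over the 34796 promoter windows of all genes. The median GC was 58.8% for these HOX windows and 58.0% over all. The matched HOX promoters thus had a higher median CG count at nearly the same GC, while the HOXB1 window was below both CG medians.

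The ends of the nearest super-enhancers are 300-base windows beginning 50 bp inside the edge that faces the cluster, on the plus strand. For HOXB this is chr17:48470455-48470754, outside any annotated gene. For HOXD it is chr2:174630713-174631012, in an intron of WIPF1. The window for HOXC falls in an exon of SMUG1 and is not shown.
HOXB-facing end: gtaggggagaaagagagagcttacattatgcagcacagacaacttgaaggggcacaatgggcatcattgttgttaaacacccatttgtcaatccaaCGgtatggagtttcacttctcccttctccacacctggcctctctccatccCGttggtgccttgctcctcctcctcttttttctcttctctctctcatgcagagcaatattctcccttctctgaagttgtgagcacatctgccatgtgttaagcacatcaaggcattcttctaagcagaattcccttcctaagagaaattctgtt
HOXD-facing end: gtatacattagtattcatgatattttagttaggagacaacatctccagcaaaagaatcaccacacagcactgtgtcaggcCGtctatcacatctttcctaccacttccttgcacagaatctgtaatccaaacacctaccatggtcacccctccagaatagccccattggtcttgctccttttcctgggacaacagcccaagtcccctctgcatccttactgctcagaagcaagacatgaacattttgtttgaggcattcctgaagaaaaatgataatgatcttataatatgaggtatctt
The HOXB-facing window held 2 CG at 46.0% GC and the HOXD-facing window 1 at 42.3%. The median over both ends of all 2615 super-enhancers (5230 windows) was 3 CG at 49.7% GC, so both windows were just below it. The letters TGATNNAT, a string resembling the composite site of HOX proteins with PBX partners, were searched on both strands. They were in neither window and in 513 of the 5230 (9.81%). This says only that the letters are not in these windows.

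The clusters differed in how far away the first super-enhancer was and on which side it lay (see the map of super-enhancers around the clusters). HOXB (chr17:48528526-48728750, 200 kb, 10 genes) was the nearest. Its closest super-enhancer was on the 3′ side, at chr17:48433907-48470805, beyond HOXB1 and 3.63 kb from SKAP1, which encodes a T cell adaptor protein. It was 36.9 kb long with 9 constituent peaks, lay outside protein-coding genes over 100% of its length and overlapped 1 noncoding record. Its signal of 12966 was 1.22 times the cutoff and ranked 2155 of 2615. On the 5′ side, the first super-enhancer was 656 kb from HOXB13, at the gene of the mitochondrial protein PHB1 (chr17:49384631-49412027), with a signal of 11545 (1.09 times the cutoff, rank 2415). Both thus sat low in the ranking.

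HOXC (chr12:53938831-54056030, 117 kb, 9 genes) came second. Its nearest super-enhancer was also on the 3′ side, 126 kb beyond HOXC4, at chr12:54182150-54227774. This region covered the start site of SMUG1, which encodes a DNA glycosylase and is the next protein-coding gene on that side, and lay outside protein-coding genes over 85.0% of its 45.6 kb. It had 11 constituents and a signal of 13044 (1.23 times the cutoff, rank 2138). On the 5′ side the first super-enhancer was 445 kb from HOXC13, at chr12:53444788-53493602, over PRR13, the RNA-binding protein gene PCBP2 and the kinase gene MAP3K12. Its signal was 17646, 1.66 times the cutoff, at rank 1511.

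HOXA (chr7:27092993-27200091, 107 kb, 11 genes) lay in the middle of a stretch of 1.48 Mb without a super-enhancer. On the 5′ side, 657 kb beyond HOXA13, chr7:27857025-27926605 lay in the zinc finger gene JAZF1, intronic over 99.2% of its length, with a signal of 14431 (1.36 times the cutoff, rank 1894). On the 3′ side, chr7:26302715-26377505 overlapped the sorting nexin gene SNX10, with 22 constituents and a signal of 28809 (2.71 times the cutoff, rank 742). The stronger of these regions was thus on the 3′ side.

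HOXD (chr2:176092721-176190907, 98.2 kb, 9 genes) was the farthest from any super-enhancer and the only cluster of the 4 with none within 1 Mb. The nearest, on the 5′ side and 1.46 Mb beyond HOXD13, was chr2:174507030-174631063, over WIPF1, which encodes a partner of the actin regulator WASP. It was 124 kb long with 28 constituents, and its signal of 42977 was 4.05 times the cutoff (rank 327), the highest of the 8 regions that border the clusters. On the 3′ side the first super-enhancer was 5.10 Mb from HOXD1, at chr2:181294215-181312931, outside protein-coding genes, with 4 constituents over 18.7 kb and a signal of 12897 (1.21 times the cutoff, rank 2165). Set beside the medians over all super-enhancers (signal 19736, 60.7 kb, 16 constituents), the nearest regions of HOXB and HOXC were small and weak and that of HOXD was large and strong. Per base the 3 were closer, at 0.351, 0.286 and 0.347 signal per bp against a median of 0.343. The JAZF1 region nearest to HOXA, with 18 constituents over 69.6 kb, was at 0.207, the lowest of the 8 regions that border the clusters.

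**Figure D1:**
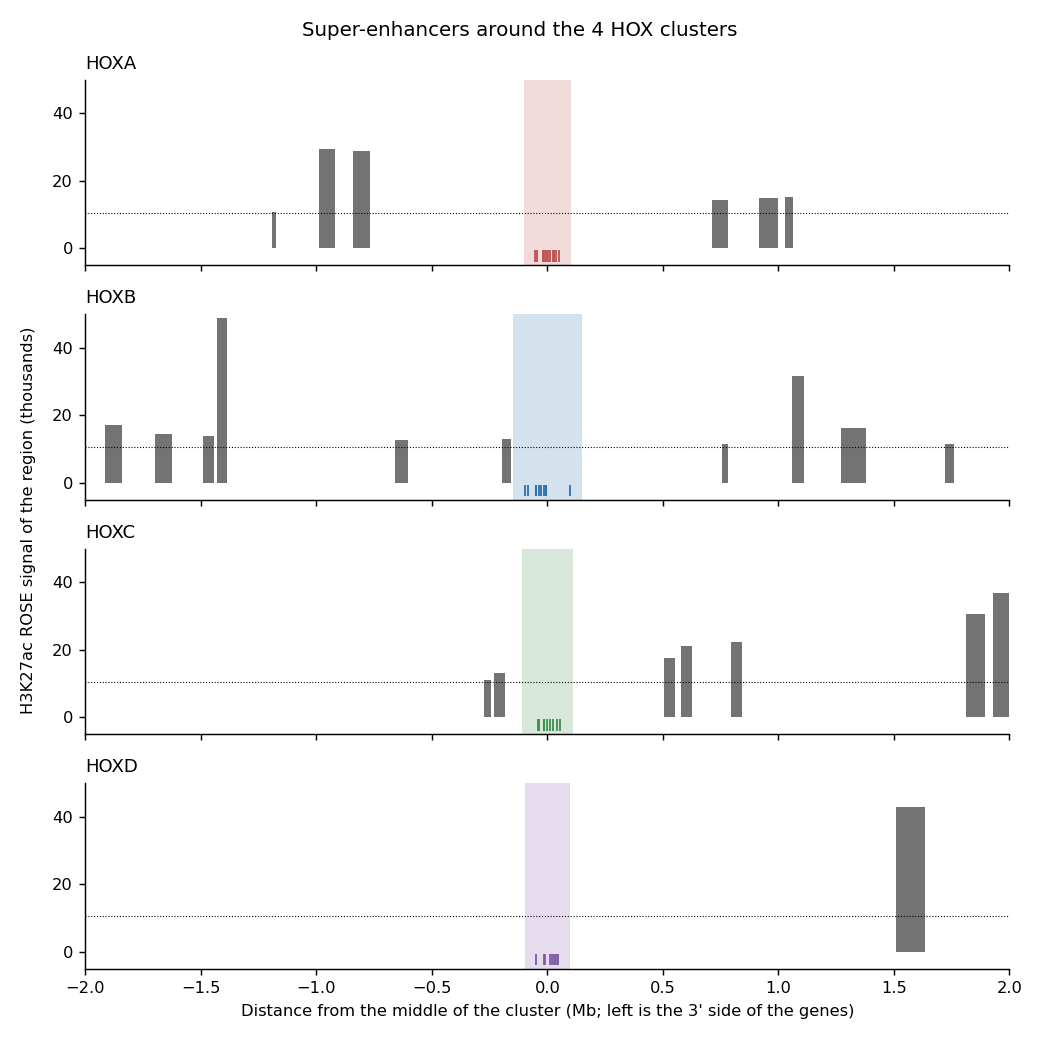
Super-enhancers within 2 Mb of the middle of each HOX cluster. The x axis gives distance in Mb, turned so that the 3′ side of the genes is on the left, and the y axis the ROSE H3K27ac signal (in units of 1000) for the pooled WT column. Grey bars are super-enhancers drawn to their length, coloured marks are HOX genes, the shaded band is the cluster with 50 kb on either side, and the dotted line is the cutoff of 10617. No bar reaches a band, the bar nearest to one is 57.7 kb from HOXB1, and HOXD has 1 bar in view.

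Within a cluster the members share the same nearest super-enhancer, so their distances follow from their positions and are not separate observations. In HOXB, the 3′ genes HOXB1, HOXB2 and HOXB3, used in the hindbrain, lay 57.7, 70.1 and 78.1 kb from the super-enhancer at rank 2155. HOXB4, known for expanding blood stem cells when overexpressed, lay 105 kb from it. HOXB5, HOXB6, HOXB7, HOXB8 and HOXB9 lay 120, 125, 136, 141 and 150 kb from the same region. HOXB13, a prostate and hindgut gene set apart from the rest of the cluster, lay 254 kb from it. The distances thus rose from the 3′ to the 5′ end.

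HOXC4, HOXC5 and HOXC6 lay 126, 147 and 151 kb from the super-enhancer at rank 2138. HOXC8, HOXC9 and HOXC10 lay 169, 179 and 192 kb from it. The 5′ genes HOXC11, HOXC12 and HOXC13, the last a regulator of hair keratins, were at 205, 223 and 236 kb. HOXC thus had the same 3′ to 5′ order as HOXB.

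In HOXA all 11 members were within 657 to 726 kb of a super-enhancer. HOXA2 (723 kb) had the SNX10 region as its nearest, and the genes from HOXA3 to HOXA13 had the JAZF1 region. HOXA3, HOXA4, HOXA5, HOXA6 and HOXA7 were at 704, 726, 713, 706 and 699 kb. HOXA9 and HOXA10, the genes most often raised in acute leukemias with KMT2A fusions, were at 682 and 677 kb. HOXA11 and HOXA13, which pattern the distal limb, were at 672 and 657 kb. The order was thus the opposite of that in HOXB for the genes from HOXA4 on.

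The HOXD members spanned 1462 to 1558 kb. The limb genes HOXD13, HOXD12, HOXD11, HOXD10 and HOXD9 were nearest, at 1462, 1469, 1473, 1478 and 1492 kb from the WIPF1 region. HOXD8, HOXD3, HOXD4 and HOXD1 were at 1499, 1506, 1520 and 1558 kb. Among paralogues, the HOXB copy was the nearest to a super-enhancer in groups 2 to 9 and the HOXC copy from group 10 on (see the plot of distance by paralogue group). The spread between clusters was larger than that within a cluster: group 4, present in all of them, ran from 105 kb for HOXB4 to 1520 kb for HOXD4.

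**Figure D2:**
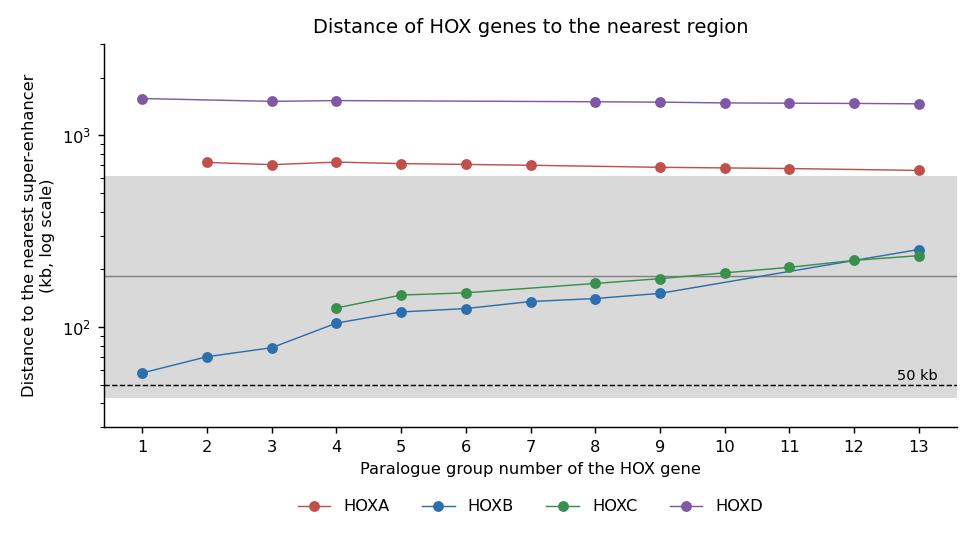
Distance of 38 HOX genes to the nearest super-enhancer in kb (log scale) against its paralogue group number, 1 colour per cluster. The grey line and band are the median (184 kb) and quartiles (42.7 to 613 kb) of the 2708 length-matched genes, and the dashed line is the 50 kb limit. All points are above the limit, HOXB and HOXC fall within the band, and HOXA and HOXD lie above it.

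The comparison with genes of matched length used every other protein-coding gene among the 100 nearest in length to any HOX gene, with none drawn at random. The median distance to a super-enhancer was 657 kb for HOX genes (quartiles 149 to 725), 184 kb for matched genes (42.7 to 613) and 182 kb over all protein-coding genes (24.7 to 684). The quartiles of HOX and matched genes overlapped. The HOX distances fell into separate ranges, 57.7 to 254 kb for HOXB and HOXC and 657 to 1558 kb for HOXA and HOXD. The HOX median and quartiles thus depend on how many genes each cluster holds, and 39 genes in 4 clusters are not 39 separate observations. Of the matched genes, 71.1% were at least as far from a super-enhancer as HOXB1, 57.8% as far as HOXC4, 23.9% as far as HOXA13 and 13.0% as far as HOXD13. These shares use the nearest member of each cluster. For the farthest member the shares were 43.6% (HOXB), 45.5% (HOXC), 22.2% (HOXA) and 12.2% (HOXD). Distances like those of HOXB and HOXC members were thus common among matched genes, and those of HOXD members less so. The genes were matched in length to individual HOX genes and not to clusters, so the shares do not describe whole clusters.

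The count of 0 depended on the extension (see the plot of the share reached by extension). At 75 kb, 2 HOX genes had a super-enhancer, at 100 kb 3 (7.69%) and at 150 kb 10 (25.6%). The matched genes reached 38.3% at 100 kb. At 250 kb 18 HOX genes (46.2%), all in HOXB and HOXC, and 55.8% of matched genes had one. From 250 to 500 kb the HOX share rose only to 48.7%, while the matched share rose to 71.1%. At 750 kb, once HOXA was reached, the shares were 76.9% and 78.2%, and at 1500 kb 92.3% and 87.2%. HOXB and HOXC entered gene by gene between 50 and 300 kb, and HOXA as a whole between 500 and 750 kb.

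**Figure D3:**
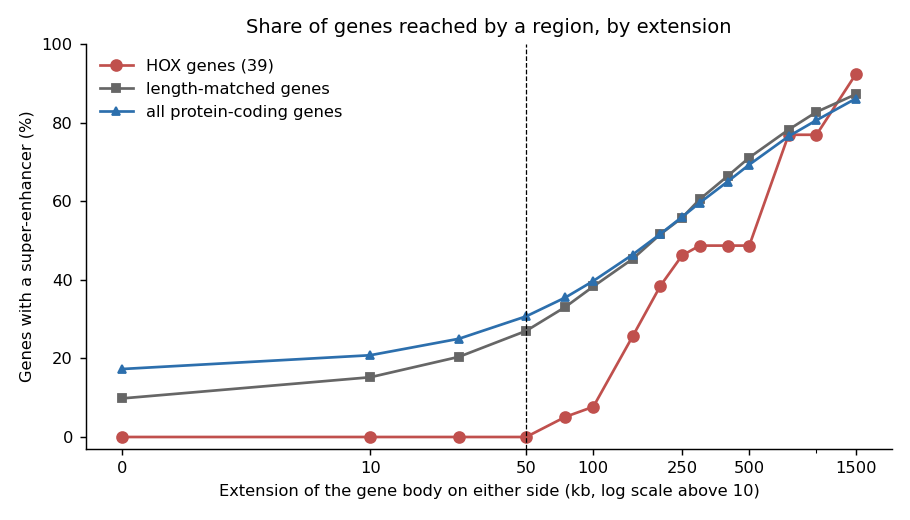
Share of genes with a super-enhancer (y axis, %) as the gene body is extended on either side (x axis, kb, log scale above 10 kb), for the 39 HOX genes, the 2708 length-matched genes and all 19970 protein-coding genes. The vertical dashed line marks 50 kb. The HOX line stays at 0 up to 50 kb, where the others are at 27% and 30.7%, stays at 48.7% from 300 to 500 kb and reaches 92.3% at 1500 kb.

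Since genes of a cluster are neighbours, whole clusters were also set against windows of the same length. Windows as long as HOXA plus 50 kb on either side (207 kb), centred on each of the 19931 other protein-coding genes, held a super-enhancer in 36.5% of cases. The figure was 43.5% for windows of the HOXB size (300 kb), 37.4% for HOXC (217 kb) and 35.8% for HOXD (198 kb). The 4 clusters had none, and 4 windows are too few to call this share particular to HOX. With at least 9 protein-coding genes in the window, as at the clusters, the shares were 43.4, 52.0, 44.6 and 42.2% in the same order. In windows tiled along the chromosomes regardless of genes they were 18.0, 21.5, 18.4 and 17.5%.

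The stretches without a super-enhancer around the clusters were 0.914 Mb at HOXB, 0.689 Mb at HOXC, 1.48 Mb at HOXA and 6.66 Mb at HOXD, against a median of 216 kb over the 2592 gaps between neighbouring super-enhancers. Of all gaps, 23.1, 27.3, 16.4 and 3.16% were at least as long. The HOXD gap was thus longer than the 95th percentile of all gaps (5.31 Mb), and the others were not. Choosing a gap for the cluster inside it favours long gaps. With no super-enhancer within 50 kb, each also had to span the cluster with its flanks (300, 217, 207 and 198 kb). The length shares are thus a description and not a fair comparison with other genes. The gaps held 24, 16, 16 and 34 protein-coding genes, against a median of 2, and 5.98, 11.7, 11.7 and 3.01% of gaps held at least as many. These counts include the 10, 9, 11 and 9 HOX genes for which the gaps were chosen. They thus do not show that the gaps are unusual in gene number.

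HOX genes also shared features that the rule did not use. Their bodies were short (median 4.22 kb, 1.68 to 56.0, against 27.5 kb over all protein-coding genes), which the matching on length took up. Their GC content had a median of 54.4%, against 51.2% in matched genes and 45.3% over all. They held 40.7 CG per kb, against 21.8 and 14.3. Within 50 kb they had a median of 8 other protein-coding genes, against 3 and 2. The share of bases within 2500 bp of a protein-coding TSS, where peaks had been left out, was 51.7%, against 28.0 and 22.7%. Among HOX genes it ran from 10.7% at HOXB13 to 74.8% at HOXA6. Of the 482 matched genes whose share was at least the HOX median, 177 (36.7%) had a super-enhancer, against 27% of all matched genes. This subset was chosen after seeing the data, and its median share near a TSS was 62.5%. Of all super-enhancers, 190 (7.27%) held the TSS of 3 or more protein-coding genes. A joined region can span start sites whose own peaks were left out, so that count does not show what the filter removed. The part of the TSS filter in the HOX result was not tested.

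The genes around and inside the clusters were examined next. Of the other protein-coding genes within 1 Mb, a super-enhancer was within 50 kb of 6 of 10 at HOXA, 13 of 38 at HOXB, 22 of 47 at HOXC and 0 of 5 at HOXD, 41 of 100 in all. The share of flanking genes was thus not below the 30.7% of all genes at HOXA, HOXB and HOXC. Only 5, 4 and 5 super-enhancers lay within 1 Mb of these clusters, in the same order. Neighbouring genes thus shared regions and are not separate observations. Of the genes next to a cluster, SKAP1 (HOXB) and SMUG1 (HOXC) had one. SKAP2 and the homeobox gene EVX1 beside HOXA were 290 and 607 kb from one, TTLL6 beside HOXB 291 kb, CALCOCO1 beside HOXC 215 kb, and EVX2 and MTX2 beside HOXD 1446 and 1638 kb. Inside the clusters, PRAC1 and PRAC2 in HOXB, 1 protein-coding record without a symbol in each of HOXA and HOXC, and the 22, 15, 13 and 7 noncoding records of HOXA, HOXB, HOXC and HOXD all lacked a super-enhancer within 50 kb.

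The clusters carry microRNAs, which repress HOX and other mRNAs. Mature sequences from RefSeq were matched for the microRNAs below and are printed to show their kinship, with the seed (bases 2 to 8), which sets target choice, in capitals.
miR-10a-5p: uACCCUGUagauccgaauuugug
miR-196a-5p: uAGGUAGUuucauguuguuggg
miR-196b-5p: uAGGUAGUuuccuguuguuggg
miR-615-3p: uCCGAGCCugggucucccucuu
The miR-196 family shares 1 seed and comes from MIR196A1 in HOXB, MIR196A2 in HOXC and MIR196B in HOXA. None of the 6 microRNA genes had a super-enhancer within 50 kb. MIR10A was at 109 kb, MIR615 at 148 kb, MIR196A1 at 162 kb, MIR196A2 at 190 kb, MIR196B at 687 kb and MIR10B at 1519 kb, the distances of their host clusters.

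Genes that act with or on HOX genes were counted in the same way (see the bars by gene list). The TALE homeodomain proteins (PBX, MEIS and PKNOX) bind DNA together with HOX proteins. Of the 9 genes, PKNOX1 alone had a super-enhancer, at rank 608. MEIS3, PKNOX2, PBX3, PBX4 and PBX2 were 158, 164, 212, 362 and 413 kb from one, and MEIS1 and MEIS2 were 1010 and 1538 kb from one. The ParaHox genes, the sister cluster of HOX, had 0 of 6, with CDX1, CDX2, PDX1 and GSX1 at 106, 293, 336 and 467 kb and GSX2 and CDX4 at 4994 and 7740 kb. Among 15 further ANTP-class homeobox genes, DLX3 and DLX4 shared 1 super-enhancer (rank 1647) and the others, EVX1 and EVX2 included, had none.

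Of 13 genes listed as trithorax, MLL complex and partner genes 3 had a super-enhancer (23.1%, against 30.7% of all genes). They were the elongation and MLL-partner genes AFF1 (rank 202) and MLLT1 (rank 1774) and the H3K79 methyltransferase gene DOT1L (rank 1140). The complex genes KMT2A, KMT2B, MEN1, WDR5, RBBP5, ASH2L and DPY30 had none, and KMT2A was 277 kb from one. Of 23 Polycomb genes 8 had one (34.8%), close to the 30.7% of all genes. PHC3, a PRC1 subunit, was at rank 12, RBBP4 at rank 118, PHF19 at 375, CBX7 at 559, JARID2 at 915 and PCGF2 at 1333. The H3K27 methyltransferase genes EZH1 and EZH2 were at ranks 1711 and 1714. Of 10 homeobox genes used in lymphoid cells, 6 had one: CUX1 (rank 43), the B cell identity factor PAX5 (216), HHEX (369), TGIF2 (618), POU2F2, which encodes OCT2 (1460), and POU2F1 (1738). ZEB1, ZEB2, SATB1 and TGIF1 did not. Homeobox genes thus stood on both sides of the rule, and the lists, of 6 to 23 genes apart from the 100 flanking genes, are too short for a share to be read closely.

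**Figure D4:**
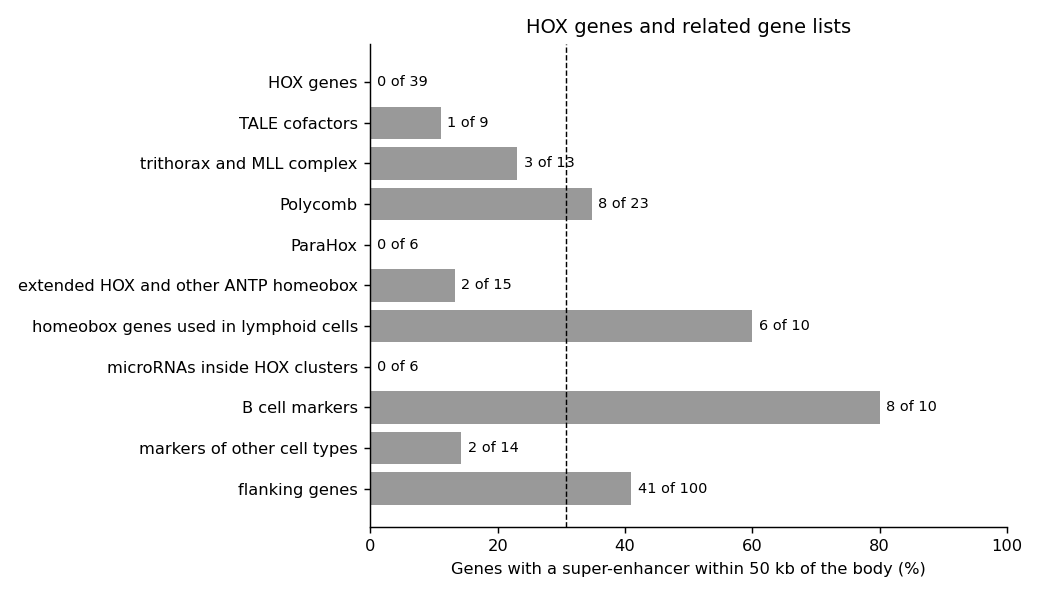
Share of each gene list with a super-enhancer within 50 kb of the gene body (x axis, %), with the number of genes beside each bar. The dashed line is the share over all protein-coding genes (30.7%). HOX, ParaHox and HOX microRNA genes are at 0, lymphoid homeobox genes at 60.0% and B cell markers at 80.0%.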

How the data were processed

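H3K27ac, H3K4me1 and H3K4me3 CUT&RUN was done in 24 samples, of which only the pooled WT H3K27ac values were used. According to their methods, the authors aligned reads to hg38 in nf-core cutandrun, used an IgG control per genotype, and set the depth by promoter reads. SEACR gave the peaks, MACS2 the summits, and ROSE the super-enhancers, once start sites of noncoding RNAs had been removed. The deposited signal is the ROSE signal per region in 1 pooled column. Its unit is not stated in the header, so it is a relative value within the table, with no replicate error and no read counts. The other deposited columns, the number and summed length of constituent peaks and the rank, are counts, lengths and order made by the authors. The submitters' processing notes also name DiffBind 3.6.1 and DESeq2, which made no value used here.

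Gene bodies came from GENCODE version 44 on hg38. A gene had a super-enhancer if at least 1 bp of a region overlapped the body extended by 50 kb. Matched genes were the union of the 100 nearest in length to each HOX gene. Procedures were tested on simulated data with known positions. No test or chance comparison was made, because 1 pooled column has no error and genes of a cluster share their regions. Genes named are the HOX genes, the regions on either side of each cluster, the genes they overlap or that are next to a cluster, list members with a super-enhancer (up to 8 per list), and the TALE, ParaHox and microRNA genes. Single values of a few genes and 1 sequence are not reported here. Members without a super-enhancer in other lists were named after their values were seen. The HOX genes and lists were chosen with earlier results of these data known. Promoters and microRNAs came from RefSeq, and miR-10b-5p was not matched. The versions were matplotlib 3.10.9, scipy 1.17.1, pandas 2.3.3 and numpy 2.4.6 under Python 3.11.15.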

Additional observations from a re-analysis of the deposited data

How the results depend on the processing

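No paired analysis was possible because the WT signal is 1 pooled column without replicate numbers, and for the same reason no replicate could be left out. Of 69 alternatives to 15 results, 42 kept the value within the set limits and 27 moved it beyond them. For the short gene lists the limits were wide, so a share within them was not always unchanged. The TALE share stayed at 11.1% at 100 kb but was 44.4% at 250 kb, still within the limits. Polycomb at 100 kb (52.2% against 34.8%) was also within them. So were lymphoid homeobox genes with the 1307 regions of highest signal (40.0% against 60.0%). With no or a 25 kb extension the HOX count stayed at 0. At 100 kb it was 3 genes in 1 cluster, and at 250 kb 18 genes in 2 clusters. The share of length-matched genes was 9.82% with no extension, 20.4% at 25 kb, 38.3% at 100 kb and 55.8% at 250 kb. It was 30.5% over the 12888 genes in the HOX length range and 30.3% over 2104 genes with as many neighbours. Chosen after seeing the data, the limit to 482 genes with as much sequence near a TSS gave 36.7%, and the limit to 552 genes on the HOX chromosomes 27.5%. Windows with at least 9 protein-coding genes gave 43.4% (HOXA size), 52.0% (HOXB), 44.6% (HOXC) and 42.2% (HOXD), and tiled windows 18.0, 21.5, 18.4 and 17.5%. At 250 kb the trithorax list rose to 61.5%, Polycomb to 65.2% and the microRNAs to 66.7%. Flanking genes were 19.0% with no extension, 52.0% at 100 kb and 73.0% at 250 kb. All protein-coding genes were at 17.3% with no extension, 39.7% at 100 kb and 56.0% at 250 kb, so a list share should be read beside these. With only the 1307 regions of highest signal flanking genes were 19.0% and the other ANTP-class homeobox genes 0. The share over all genes for those 1307 regions is not given here. These shifts follow from the longer reach, the smaller set of regions or the changed set of genes.

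The limits are those of the table. Regions below the cutoff were not analysed here, and 508 regions (19.4%), the nearest ones of HOXB and HOXC among them, had a signal within 25% above it. Distance along the chromosome does not show which gene a region acts on. The methods state sequencing depth only roughly and the table holds no read counts, so no counting error was computed for signals near the cutoff.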
